A study of Homo sapiens with 12 samples.

Results

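Heme is the iron-containing ring that lets hemoglobin carry oxygen, and every cell needs small amounts of it for its respiratory enzymes. Its synthesis begins inside the mitochondrion, where 5-aminolevulinate synthase joins glycine to succinyl-CoA. It continues through a series of cytosolic enzymes and ends back in the mitochondrion, where ferrochelatase inserts iron into the finished ring. Red cell precursors make far more heme than other cells, use an erythroid form of the first enzyme, and take up the iron through the transferrin receptor. The 9 genes described here cover that route. ALAS1 and ALAS2 encode the general and the erythroid form of the first enzyme, ALAD, UROD, CPOX and FECH encode later enzymes, TFRC encodes the transferrin receptor, SLC25A37 encodes mitoferrin-1, which brings iron into the mitochondrion, and SLC25A38 encodes a mitochondrial carrier that supplies glycine for the first step. They were chosen by symbol. All 9 were found, each on a single line of a table of 58365 gene entries with 56593 distinct symbols, and all 9 were among the 14840 genes that reached 1 FPKM (fragments per kilobase of transcript, scaled to the mapped fragments of the library, so that levels are corrected for gene length) in at least 3 libraries and were tested.

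The levels come from RNA-seq of the human embryonic stem cell line H1 carried stepwise toward blood in Custom mTeSR1 medium, first with activinA and BMP4 and then with VEGF and bFGF. There were 4 populations with 3 libraries each, all from this 1 line: undifferentiated H1 cells, mesoderm cells positive for the apelin receptor (APLNR+) collected on day 2, cells positive for CD31 and CD34 (CD31+CD34+, the hemogenic endothelial progenitors of the study) collected on day 5, and CD43+ hematopoietic progenitors, the collection of day 8. The labels number the libraries of a population 1 to 3 but do not say that they came from separate cultures. The study states in general that each analysis had at least 3 independent experiments, without tying these libraries to them. The p-values therefore measure the spread between these libraries, which may be technical. The study asked how gene programs change from one stage to the next, and the genes were therefore followed over the 3 consecutive steps and from H1 to CD43+.

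The markers used to collect the cells were present in the populations named for them, but 2 of them did not set those apart. The mean FPKM of APLNR was 0.528 for H1, 383 for APLNR+, 402.5 for CD31+CD34+ and 23.7 for CD43+ libraries. PECAM1 (CD31) averaged 55.2 FPKM in CD31+CD34+ and 95.9 in CD43+ cells, CD34 47.7 and 22.2, and SPN (CD43) 3.70 and 75.6. PTPRC, which encodes CD45 and marks later blood cells, stayed under 1 FPKM in every CD43+ library. The CD43+ libraries held markers of several blood lineages, with 12 erythroid markers summing to 640 to 759 FPKM per library, 7 megakaryocyte markers to 76.4 to 107, and 8 myeloid markers to 37.4 to 42.7. Under 1 FPKM in every CD43+ library were the erythroid genes SLC4A1 and HEMGN and the megakaryocyte gene GP6. The same held for the myeloid genes MPO, ELANE, AZU1 and CD14, and ELANE was listed at 0. Read depth is unknown because no counts were used. A comparison of low values placed the libraries between 0.555 and 1.26 times the depth of CD43+ replicate 3, with replicate 1 the shallowest of each population.

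The stretch of DNA just before a gene's start is where many regulatory proteins bind, and GATA1, the master regulator of erythroid genes, recognizes a short GATA motif. Its level averaged 0.00851 FPKM in H1 and 0.00766 in APLNR+ cells, then 1.83 in CD31+CD34+ cells, and reached 56.0 in CD43+ cells. The promoters of 4 of the genes are printed because they frame the results below. ALAS1 and ALAS2 encode the same step but changed differently. Among the 9 genes, CPOX and FECH had the most alike course of any pair. Each is the 250 bases before the start, 5′ to 3′ on the strand of the gene, from RefSeq on GRCh38.p14. The deposited values were made on hg19, so these positions do not belong to the coordinates of the deposited table. Capitals mark a match, on either strand, to AGATA or else to TGATA when A or G comes next.
ALAS1 (chr3:52197833-52198082, plus strand): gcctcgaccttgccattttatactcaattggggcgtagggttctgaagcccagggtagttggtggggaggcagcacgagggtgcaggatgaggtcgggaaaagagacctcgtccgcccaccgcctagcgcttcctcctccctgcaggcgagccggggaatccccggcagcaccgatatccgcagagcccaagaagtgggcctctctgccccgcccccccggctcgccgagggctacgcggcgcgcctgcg
ALAS2 (chrX:55030978-55031227, minus strand): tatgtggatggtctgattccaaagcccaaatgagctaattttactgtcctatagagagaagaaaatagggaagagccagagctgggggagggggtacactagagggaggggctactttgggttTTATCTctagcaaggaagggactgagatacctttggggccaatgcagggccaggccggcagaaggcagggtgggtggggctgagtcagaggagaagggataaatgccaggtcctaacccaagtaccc
CPOX (chr3:98593612-98593861, minus strand): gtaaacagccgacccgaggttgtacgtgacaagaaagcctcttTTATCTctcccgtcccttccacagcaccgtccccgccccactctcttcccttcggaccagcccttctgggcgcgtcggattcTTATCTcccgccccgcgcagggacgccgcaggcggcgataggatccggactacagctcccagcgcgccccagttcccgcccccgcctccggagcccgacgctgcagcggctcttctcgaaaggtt
FECH (chr18:57586703-57586952, minus strand): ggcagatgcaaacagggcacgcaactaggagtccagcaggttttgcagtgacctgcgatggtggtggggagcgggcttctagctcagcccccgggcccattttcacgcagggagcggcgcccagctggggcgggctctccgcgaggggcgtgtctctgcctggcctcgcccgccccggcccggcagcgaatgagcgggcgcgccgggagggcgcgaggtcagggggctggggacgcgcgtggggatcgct
ALAS2 held 1 match, 127 to 122 bases before its start, and CPOX held 2, at 207 to 202 and at 125 to 120 bases. ALAS1 and FECH held none in this window, and neither did UROD, TFRC or SLC25A38. ALAD has 2 annotated windows, 1 of which held a single match at 68 to 63 bases before the start. Of all 35116 promoter windows of this length, 22.3% held at least 1 match and 4.96% held 2 or more. The letters CCACCC are the core of the sites of the erythroid factor KLF1. Counting either strand, they had 2 matches in the ALAS2 window and 1 in that of SLC25A38. Of all windows, 31.3% held at least 1 such match and 7.92% held 2 or more. These matches are a description of letters, not of bound sites. RefSeq sequences were matched by symbol for 8 of the 9 genes, all but SLC25A37.

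**Figure D1:**
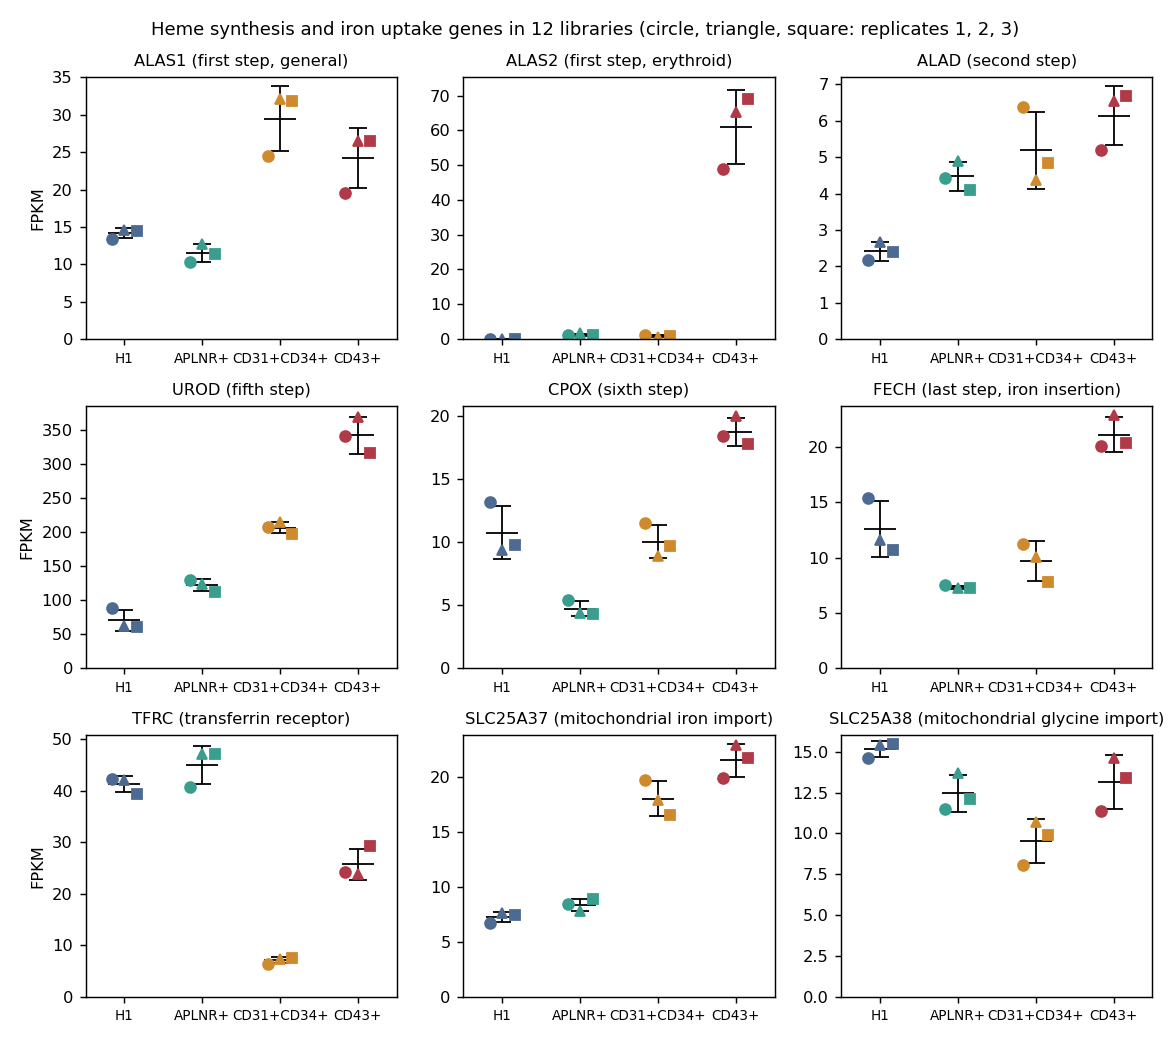
Level of each of the 9 genes in FPKM (linear axis from 0) in the 3 libraries of each population, with the mean and SD. ALAS2 stands near 0 until the CD43+ libraries, at 48.9 to 69.0, UROD climbs at each step, and TFRC dips to 6.39 to 7.55 in CD31+CD34+ cells.

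At the step from CD31+CD34+ to CD43+ cells, 3 of the 9 genes rose and none fell: ALAS2, FECH and TFRC. A gene is said to rise or fall when its adjusted p was under 0.05 (limma, Benjamini-Hochberg over all 14840 genes) and its change on the log2(FPKM + 1) scale reached 1, that is 2-fold. Over all genes tested at this step, 5.58% rose and 8.79% fell. The libraries of the 2 populations did not overlap for 7 of the 9 genes, beside 58.0% of all genes. The median change of the 9 was 0.73 and that of all genes was −0.0049. Of the earlier steps, that from H1 to APLNR+ cells had 1 gene that rose, ALAS2, beside 8.30% of all genes, and 1 that fell, CPOX, beside 7.62%. That from APLNR+ to CD31+CD34+ cells had 2 that rose, ALAS1 and SLC25A37, beside 12.5%, and 1 that fell, TFRC, beside 17.1%. With 3 called genes of 9 at this step against 29.6% of all genes in either direction, and 2 of 9 against 15.9% at the step before, those counts are near the background. From H1 to CD43+ cells 4 of 9 rose, ALAS2, ALAD, UROD and SLC25A37, beside 14.6% of all genes, and none fell, beside 22.5%. In either direction the background was 14.4% at the last step and 37.1% from H1 to CD43+. Taken in either direction, the 4 of 9 called from H1 to CD43+ are thus near the background too. The span from H1 to CD43+ shares its libraries with the first and last steps.

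Most tested genes passed the looser criteria, which ask for no minimum change. The libraries did not overlap for 8 of 9 genes from H1 to APLNR+ cells, beside 66.0% of all genes, for 7 of 9 at the middle step, beside 75.7%, and for 8 of 9 from H1 to CD43+ cells, beside 76.3%. By adjusted p alone 5 of 9 passed at the first step, 7 at the middle step, 7 at the last and 8 from H1 to CD43+ (limma). The shares of all genes that did so were 57.9%, 73.8%, 53.6% and 74.6% in the same order. By the 2-fold rule no gene of the 9 rose at every step, and by adjusted p alone UROD was the one that was higher at each. An exact two-sided permutation test of 3 against 3 libraries cannot go below 0.1, and each comparison named below whose libraries did not overlap reached that value.

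**Figure D2:**
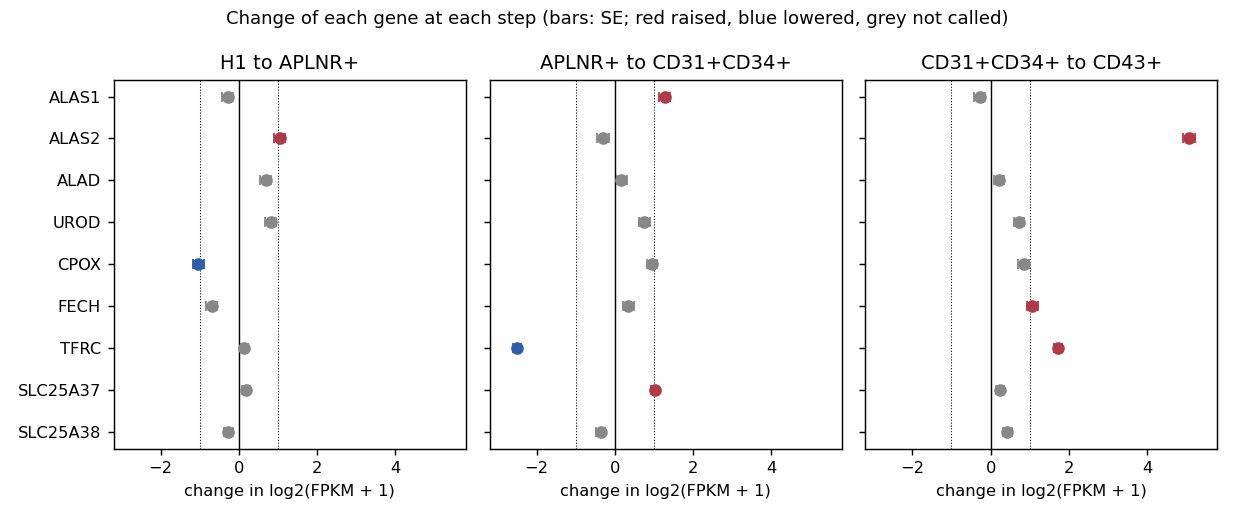
Change of each gene at the 3 consecutive steps on the log2(FPKM + 1) scale, with its SE (horizontal bars); red rose, blue fell, grey did neither, and dotted lines mark 2-fold. ALAS2 at the last step, at 5.07, and TFRC at the middle step, at −2.51, lie farthest from 0.

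ALAS2, the erythroid first enzyme, had the largest rise of the 9 genes. It stood at 0.0762, 0.0643 and 0.119 FPKM in the H1 libraries, at 1.10, 1.59 and 1.07 in APLNR+, at 1.07, 0.598 and 0.829 in CD31+CD34+, and at 48.9, 65.2 and 69.0 in CD43+ cells. The CD43+ libraries were all far above the rest, and those of APLNR+ and CD31+CD34+ overlapped. The last step was a rise of 5.07 ± 0.15 (SE) in log2(FPKM + 1) with limma's adjusted p = 1.45e-10, a 73.4-fold difference between the mean FPKM. From H1 to APLNR+ cells it rose by 1.05 ± 0.15 (adjusted p = 6.76e-05, limma), at levels near 1 FPKM, where the added 1 understates a change. This rise fell below 2-fold, to 0.94, without APLNR+ replicate 2, and to 0.93 with quantile normalization. Between APLNR+ and CD31+CD34+ cells the change of −0.30 did not pass (adjusted p = 0.081). By level, ALAS2 ranked last of the 9 genes in the first 3 populations and behind UROD alone in CD43+ cells, where it exceeded 93.0% of the tested genes. Bulk libraries cannot tell more cells with ALAS2 RNA from more of it per cell. The sum of the 12 erythroid markers was 41.8 to 49.6 FPKM per library in CD31+CD34+ and 640 to 759 in CD43+ cells, of which the globin gene HBE1 averaged 525.5. Of these markers 9 were tested and 8 rose at the last step, beside 5.58% of all genes. AHSP, one of the 8, reached 1.80 FPKM, under its H1 mean of 4.76, and EPOR, at 7.53 and 4.73 FPKM, did not rise. The part of the erythroid markers in the ALAS2 change was not tested. Exons of ALAS2 overlap those of APEX2, a DNA repair nuclease gene on the other strand, and whether the counting used strand is not given in the sources used here. APEX2 averaged 5.97, 7.80, 14.4 and 12.4 FPKM in the 4 populations in order. Both genes had higher means in APLNR+ than in H1 cells, and their means moved in opposite directions at the middle and the last step. The part of the overlap in the ALAS2 levels was not tested.

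ALAS1, the general first enzyme, changed one step earlier. It stood at 13.4, 14.6 and 14.5 FPKM in H1, at 10.3, 12.8 and 11.4 in APLNR+, at 24.5, 32.2 and 31.9 in CD31+CD34+, and at 19.5, 26.5 and 26.4 in CD43+ cells. Replicate 1 was the lowest library of every population, as it was for SLC25A38. From APLNR+ to CD31+CD34+ cells it rose by 1.28 ± 0.14 (limma, adjusted p = 4.46e-06), 2.57-fold between mean FPKM. The change of −0.28 at the last step did not pass (adjusted p = 0.108), and those libraries overlapped. Its order from low to high was APLNR+, H1, CD43+ and CD31+CD34+, in which neither the difference of APLNR+ and H1 nor that of CD43+ and CD31+CD34+ passed an adjusted p of 0.05. With the replicate number as a block both passed, at limma's adjusted p of 0.00812 and 0.0095, still under 2-fold. From H1 to CD43+ cells the difference was 0.72 with limma's adjusted p = 0.000478, below 2-fold.

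The balance of both genes thus differed most in CD43+ cells. ALAS2 made up 0.605% ± 0.19 (SD, n = 3) of the summed ALAS1 and ALAS2 FPKM in H1 cells, 9.78% ± 1.27 in mesoderm, 2.85% ± 1.21 of that in CD31+CD34+ cells, and 71.6% ± 0.629 of that in CD43+ cells. Within each CD43+ library ALAS2 was above ALAS1, by 2.50-fold, 2.46-fold and 2.61-fold. FPKM is per length, so gene length does not bar setting these levels side by side. No correction was made here for the overlap of ALAS2 with APEX2. The shares before CD43+ cells also rest on ALAS2 levels near or under 1 FPKM. The sum itself averaged 14.3 FPKM in H1 cells and 12.7 in APLNR+ cells, then 30.3 in CD31+CD34+ cells, and reached 85.2 in CD43+ cells. Its rise before CD43+ cells was carried by ALAS1, which made up nearly all of it in CD31+CD34+ cells. The log2 ratio of ALAS2 to ALAS1, with 1 added to each level, averaged −3.80 for H1, −2.47 for APLNR+, −4.06 for CD31+CD34+ and 1.30 for CD43+ cells. Each of the 3 steps and the span from H1 to CD43+ gave an exact two-sided permutation p of 0.1, the smallest that 3 against 3 libraries allow, or 0.16 adjusted over the 8 ratio comparisons made. At a ratio this far from 1 the added value matters, and with 0.1 added the means were −6.27, −3.11, −5.01 and 1.33.

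**Figure D3:**
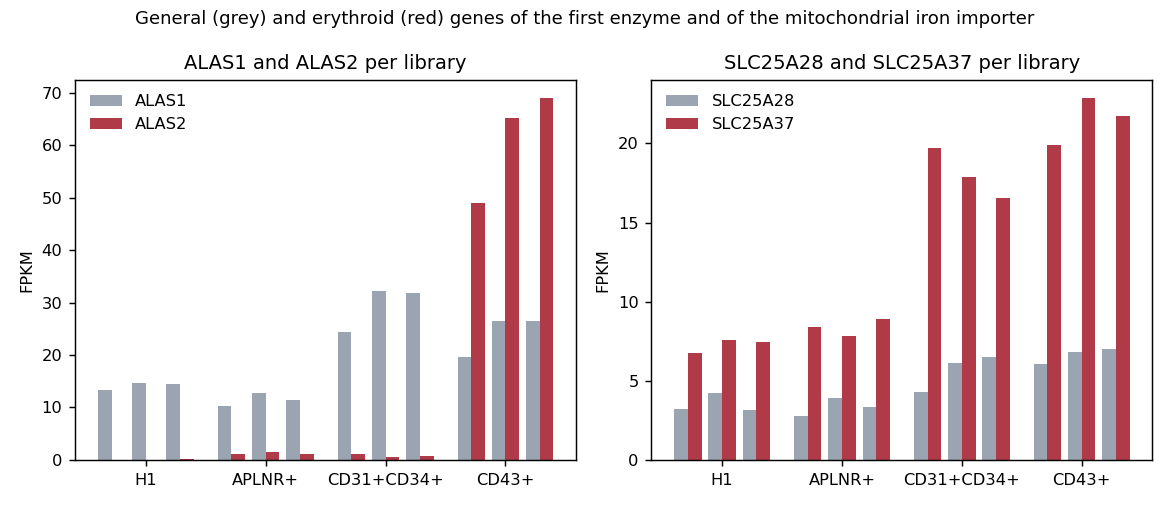
FPKM of the general (grey) and erythroid (red) gene of the first enzyme, left, and of the mitochondrial iron importer, right, in each library (bars, linear axis from 0; replicates 1 to 3 from left to right in each population). ALAS2 exceeds ALAS1 in the 3 CD43+ libraries and in no other, and SLC25A37 exceeds SLC25A28 in all 12.

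ALAD, the second enzyme, which joins 2 molecules of aminolevulinate, averaged 2.41 FPKM in H1 and 6.15 in CD43+ cells, the latter above 52.8% of the tested genes. It stood at 2.17, 2.68 and 2.39 FPKM in H1, at 4.41, 4.89 and 4.10 in APLNR+, at 6.38, 4.37 and 4.83 in CD31+CD34+, and at 5.21, 6.55 and 6.68 in CD43+ cells. H1 lay below every other library, while neighbouring populations after it overlapped. From H1 to CD43+ cells it rose by 1.06 with limma's adjusted p = 1.31e-05, of which 0.68 fell in the first step (adjusted p = 0.000926). The next steps of 0.17 and 0.21 did not pass (adjusted p = 0.27 and 0.199, limma). In CD43+ cells ALAD had the lowest level of the 9 genes.

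UROD, which encodes uroporphyrinogen decarboxylase, had the highest level of the 9 in every population. It stood at 87.5, 62.3 and 59.5 FPKM in H1, at 129.8, 123 and 112 in APLNR+, at 207, 214 and 197 in CD31+CD34+, and at 341, 369 and 315 in CD43+ cells. No neighbouring populations overlapped, and the order H1, APLNR+, CD31+CD34+, CD43+ held library by library. The steps were 0.81, 0.76 and 0.73 in log2(FPKM + 1), with adjusted p of 0.000231, 0.000242 and 0.000595 (limma), none reaching 2-fold. Over the whole course they added to a rise of 2.30 ± 0.13 with limma's adjusted p = 1.04e-08, or 4.90-fold between mean FPKM. With quantile normalization the steps were less even, at 1.04, 0.49 and 0.71.

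CPOX and FECH, which encode coproporphyrinogen oxidase and ferrochelatase, dipped in APLNR+ cells and were highest in CD43+ cells. CPOX stood at 13.1, 9.35 and 9.73 FPKM in H1, at 5.37, 4.38 and 4.30 in APLNR+, at 11.5, 8.88 and 9.70 in CD31+CD34+, and at 18.4, 19.98 and 17.7 in CD43+ cells. Its fall at the first step was −1.04 ± 0.15 with limma's adjusted p = 3.98e-05. This call sat at the 2-fold limit: the change was −0.90 without H1 replicate 1, −0.99 without APLNR+ replicate 3, −0.98 with replicates 2 and 3 alone and −0.95 with upper-quartile or median-of-ratios scaling. The return in CD31+CD34+ cells was 0.96 (limma, adjusted p = 4.53e-05) and passed 2-fold, at 1.04, without APLNR+ replicate 1 and, at 1.03, without CD31+CD34+ replicate 2. The last step was 0.84 (limma, adjusted p = 0.000233), and the difference of 0.08 by which H1 exceeded CD31+CD34+ cells did not pass (adjusted p = 0.589).

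FECH stood at 15.4, 11.6 and 10.7 FPKM in H1, at 7.47, 7.22 and 7.21 in APLNR+, at 11.3, 10.02 and 7.77 in CD31+CD34+, and at 20.1, 22.9 and 20.3 in CD43+ cells. Every CD43+ library was above every other library. Its rise at the last step was 1.06 ± 0.14 with limma's adjusted p = 5.85e-05, and 0.93 without CD31+CD34+ replicate 3, which was the lowest of its population. The first step of −0.70 (adjusted p = 0.00129) and the second of 0.35 (adjusted p = 0.0424, limma) stayed under 2-fold. Over the 12 libraries CPOX and FECH had a Pearson r of 0.934 on the log2 scale, the highest of the 36 pairs. UROD and SLC25A37 came next at 0.929. These values are a description of libraries that share populations and replicate numbers. Part of the CPOX annotation, 3.54% of its 50-base stretches, is shared with AC021660.3, an overlapping gene on the same strand. For the other 8 genes the shared part was at most 3.08%.

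TFRC, the transferrin receptor, was the gene of the 9 with the deepest fall. It stood at 42.3, 41.96 and 39.4 FPKM in H1, at 40.7, 47.04 and 47.2 in APLNR+, at 6.39, 7.31 and 7.55 in CD31+CD34+, and at 24.2, 23.8 and 29.2 in CD43+ cells. H1 and APLNR+ libraries overlapped, and each of the later populations lay apart from all others. From APLNR+ to CD31+CD34+ cells it fell by 2.51 ± 0.10 in log2(FPKM + 1) with limma's adjusted p = 1.16e-09, a level 6.35-fold lower. It then rose by 1.72 ± 0.10 (limma, adjusted p = 4.59e-08), 3.63-fold, which left it under the H1 level by 0.67 (adjusted p = 7.52e-05, less than 2-fold). Leaving out any 1 library kept the first of these changes between −2.58 and −2.44 and the next between 1.63 and 1.77. The sum of 8 markers of dividing cells was 438 to 491 FPKM per library in APLNR+, 298 to 342 in CD31+CD34+ and 326 to 370 in CD43+ cells. At the middle step 3 of the 8 fell, TOP2A, CDK1 and BUB1, beside 17.1% of all genes, and MCM2 rose, beside 12.5%. At the last step PCNA rose, beside 5.58% of all genes, and MKI67 fell, beside 8.79%. The part of these markers in the TFRC changes was not tested. TFRC and ALAS1 moved in opposite directions at the middle step, and their Pearson r over 12 libraries was −0.833.

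SLC25A37 and SLC25A38, the mitochondrial carriers, took different courses. SLC25A37 stood at 6.74, 7.58 and 7.44 FPKM in H1, at 8.43, 7.81 and 8.90 in APLNR+, at 19.7, 17.9 and 16.5 in CD31+CD34+, and at 19.9, 22.9 and 21.7 in CD43+ cells. Its rise came at the middle step, with a change of 1.02 and limma's adjusted p = 1.18e-06. That call too sat at the limit and was 0.998 with upper-quartile scaling, 0.96 without CD31+CD34+ replicate 1 and 0.98 without APLNR+ replicate 2. The last step was 0.24 (limma, adjusted p = 0.0475). SLC25A28, which encodes the general form of the importer, mitoferrin-2, averaged 3.56, 3.35, 5.62 and 6.62 FPKM in the 4 populations in order. The log2 ratio of SLC25A37 to SLC25A28 went from 0.86 in H1 through 1.12 and 1.54 to 1.56 in CD43+ cells, with an exact permutation p of 0.1 between H1 and CD43+ (0.16 adjusted over 8). None of its single steps reached that value (exact permutation p = 0.3, 0.2 and 1.0).

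SLC25A38, whose loss is a known cause of congenital sideroblastic anemia, changed least of the 9. It stood at 14.6, 15.4 and 15.4 FPKM in H1, at 11.5, 13.7 and 12.1 in APLNR+, at 8.04, 10.7 and 9.91 in CD31+CD34+, and at 11.4, 14.6 and 13.4 in CD43+ cells. The lowest population was CD31+CD34+, and APLNR+, CD43+ and H1 overlapped with their neighbours in the order. The steps were −0.27, −0.36 and 0.42 with adjusted p of 0.0715, 0.0166 and 0.0095 (limma), and none reached 2-fold. From H1 to CD43+ cells the difference of −0.20 did not pass (adjusted p = 0.145). With the replicate number as a block the first step and this difference passed, at limma's adjusted p of 0.00772 and 0.0261, far under 2-fold. Its level moved with that of TFRC over the 12 libraries, with a Pearson r of 0.794.

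UROS and PPOX encode enzymes of the same pathway outside the 9 genes. UROS, which closes the ring ahead of UROD, rose at the last step from 24.7 to 65.1 FPKM, a change of 1.36 with limma's adjusted p = 1.59e-07. PPOX, which acts between CPOX and FECH, averaged 11.2, 7.69, 12.3 and 23.9 FPKM in the populations in order. Its last step of 0.90 was under 2-fold, and the whole course from H1 was a rise of 1.03 (limma, adjusted p = 1.12e-06). UROS and PPOX shared with CPOX and FECH the lowest level in APLNR+ and the highest in CD43+ cells. Of the 8 enzyme genes described here, including both first-enzyme genes, ALAS1 was the one with a lower mean in CD43+ than in CD31+CD34+ cells.

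**Figure D4:**
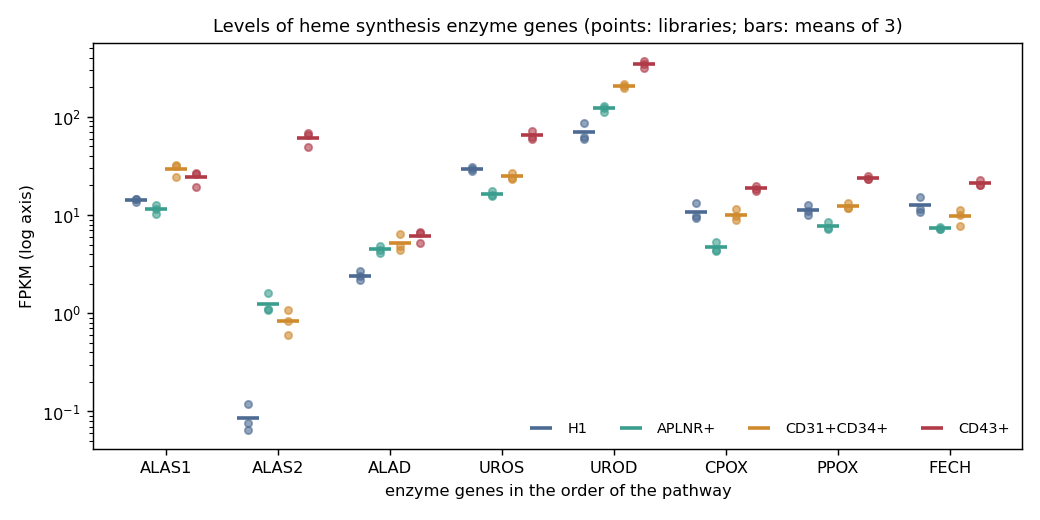
FPKM on a log axis of 8 genes that encode heme synthesis enzymes, in the order of the pathway, with each library as a point and the mean of 3 as a bar. UROD is the highest in every population, ALAS2 spans the widest range, and ALAS1 does not peak in CD43+ cells.

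Of 18 genes for heme transport and breakdown, 15 were tested. At the last step 3 rose and 1 fell, beside the 5.58% and 8.79% of all genes. BLVRB, a biliverdin reductase abundant in red cells, rose from 15.0 to 118.6 FPKM (2.90, limma's adjusted p = 4.5e-09). TMEM14C, which carries the porphyrin into the mitochondrial matrix, rose from 41.0 to 106.0 FPKM, and SLC48A1, a heme transporter of the endosome, from 11.5 to 24.2. FLVCR2 fell from 8.20 to 0.852 FPKM. At the first step ABCG2, a porphyrin exporter, rose to 6.54 FPKM and HMOX1, the heme-degrading oxygenase, fell from 15.5 to 3.33, beside 8.30% and 7.62% of all genes. At the middle step SLC48A1 rose, beside 12.5% of all genes, while FLVCR1, CLPX, ABCG2 and PGRMC1 fell, beside 17.1%. FLVCR1, the plasma membrane heme exporter, went from 24.7 FPKM in H1 to 4.41 in CD43+ cells. CLPX, whose product activates 5-aminolevulinate synthase in the mitochondrion, fell from 15.5 to 5.61 FPKM at the middle step. From H1 to CD43+ cells 3 rose and 4 fell, beside 14.6% and 22.5% of all genes. The ABCB6 rise among these, from 14.3 to 33.5 FPKM, is uncertain, since 48.8% of its 50-base stretches are shared, mostly with an overlapping gene on the same strand.

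Of 21 genes for iron import, storage and export, 15 were tested. At the first step 1 rose and none fell, beside 8.30% and 7.62% of all genes, and at the last step 1 rose and 1 fell, beside 5.58% and 8.79%. SLC40A1 encodes ferroportin, the iron exporter, and rose at the first and last steps. It averaged 0.00274 FPKM in H1 and 2.87 in APLNR+ cells, dropped to 1.09 on day 5 and stood at 15.2 on day 8, and the last step was 2.96 (limma, adjusted p = 2.49e-10). SLC39A14, a carrier of iron that is not bound to transferrin, fell at the last step from 27.2 to 12.4 FPKM, having stood at 93.7 in H1. None of the 15 rose or fell at the middle step by the 2-fold rule, beside 29.6% of all genes, although 9 had an adjusted p under 0.05 (limma), beside 73.8%. From H1 to CD43+ cells 4 rose, FTL, NCOA4, SLC40A1 and HEPH, beside 14.6% of all genes, and 1 fell, SLC39A14, beside 22.5%. FTL, the ferritin light chain, went from 712 to 2561 FPKM, with 18.3% of its 50-base stretches shared with other genes, and NCOA4, the receptor that delivers ferritin for breakdown, from 35.7 to 96.9. TF, HFE, FTMT, HAMP, LTF and CP were below the level needed for testing.

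Iron-sulfur cluster assembly also draws on mitochondrial iron. All 14 of its listed genes were tested. At the last step BOLA3 rose from 11.99 to 24.8 FPKM and NFU1 from 8.97 to 20.1, beside 5.58% of all genes, and none fell. BOLA3 alone of the 14 had fallen at the first and the middle step, from 65.5 FPKM in H1, beside 7.62% and 17.1% of all genes. FDXR, the reductase that supplies electrons for the clusters, rose at the middle step from 7.15 to 39.2 FPKM (2.31, limma's adjusted p = 2.5e-07). It alone of the 14 rose there, beside 12.5% of all genes. From H1 to CD43+ cells FDXR alone rose and BOLA3 alone fell, beside 14.6% and 22.5% of all genes. Of 11 genes that supply or use up glycine and succinyl-CoA, none rose at the last step and 2 fell, beside 5.58% and 8.79% of all genes. SLC6A9, the plasma membrane glycine carrier, fell from 9.94 to 4.22 FPKM, and GLDC, which breaks glycine down, from 5.70 to 1.87. At the middle step SUCLA2 fell from 33.5 to 4.99 FPKM (−2.53, limma's adjusted p = 1.65e-08). OGDH, which encodes a subunit of the complex that makes succinyl-CoA, rose from 20.97 to 47.7. No other gene of the 11 was called there, beside 17.1% of all genes that fell and 12.5% that rose. GLDC and AMT, both of the glycine cleavage system, fell at the first step, beside 7.62% of all genes. The fall of AMT is uncertain, since 54.4% of its 50-base stretches are shared, mostly with an overlapping gene on the same strand.

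For each of the 9 genes, the 3 tested genes with the most alike course over the 12 libraries were sought among 7671 with a mean of at least 10 FPKM in 1 population, by Pearson r of log2(FPKM + 1). ALAS2 was nearest to STXBP5 (r = 0.995), KCNK17 and RAB37. STXBP5 averaged 5.35 FPKM in CD31+CD34+ and 35.8 in CD43+ cells. ALAS1 was nearest to SHC1 (0.993), RPN1 and SPTBN1, ALAD to PDGFRB (0.964), SIAH2 and NXF1, and UROD to ADA (0.991), FOSB and QPRT. CPOX was nearest to IVD (0.992), a mitochondrial enzyme of leucine breakdown, AL356488.2 and MRPS25, and FECH to COQ8A (0.970), ALDH4A1 and SLC27A5. TFRC was nearest to GTF2B (0.986), PLGRKT and TRIAP1, SLC25A37 to INPP1 (0.993), CDKN1C and STK10, and SLC25A38 to ZNF562 (0.976), BOLA2-SMG1P6 and ATP6V1A. None of the 9 genes was among the 3 nearest of another, and ALAD, under 10 FPKM in every population, could not be. With 4 populations behind the 12 libraries, many genes share such a course, and these values are descriptions.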

How the data were processed

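The 12 libraries were Illumina TruSeq preparations of Trizol-extracted total RNA. Per the labels and the deposited table, the authors' values are FPKM per gene and library; the submitters' processing notes name BWA, Bowtie, RSEM and hg19, with versions and the strand setting not given in the sources used here. The study used more than 1 sequencing company, and which library went to which is not given in the sources used here. No counts were recovered, so depth is known only in relative terms. For 345 symbols listed repeatedly, none of them among the 9 genes, only the entry of highest mean level was kept.

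Genes reaching 1 FPKM in at least 3 libraries (14840) were tested on log2(FPKM + 1) with limma 3.58.1 (R 4.3.3), the 4 populations in 1 model with an eBayes trend, and p-values adjusted by Benjamini-Hochberg over all of them. On simulated data from H1 to CD43+, 200 of 14840 genes were changed by 2 on the log2 scale. Of the 200, 199 were called, as were 3 unchanged genes. The simulation changed only genes above a low mean level and by more than the 2-fold limit. It therefore does not test calls near that limit or at low levels. Within a population, libraries correlated at 0.966 to 0.9895 (Pearson r of log2 values). The 9 genes and all lists were chosen with earlier results of these data known. Of each list, up to 4 called genes per direction and comparison with a mean of at least 5 FPKM in the higher population were named; other genes were named where a count was small, and 1 listed gene is not reported here. Libraries share replicate numbers. The deviations of same-numbered libraries from their population means had every r above 0.1 for CD31+CD34+ to CD43+ (0.192 to 0.392) and for H1 to CD43+ (0.174 to 0.386), but not for H1 to APLNR+ (−0.021 to 0.429) or APLNR+ to CD31+CD34+ (0.025 to 0.196); the numbers alone come from the labels, and the block was run as an alternative. Shared 50-base stretches and overlapping exons were taken from the GENCODE 29 transcripts on GRCh38, and promoters from RefSeq.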

Additional observations from a re-analysis of the deposited data

How the results depend on the processing

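The 9 genes' changes over the 3 steps and from H1 to CD43+ had 788 alternative values. Of these, 771 kept their direction and their side of the rule, 12 dropped under it, 5 passed it and 0 changed direction. Many of these could not move the change itself. Leaving out a library outside the comparison, another gene filter, the replicate block or another spread estimate altered only its adjusted p. In those settings the direction was fixed in advance. The genes that crossed were ALAS2, CPOX and UROD at the first step, CPOX and SLC25A37 at the middle step and FECH at the last, each within reach of the 2-fold limit. From H1 to APLNR+ cells 2 genes were called, and 1 with upper-quartile scaling, median-of-ratios scaling or replicates 2 and 3 alone; leaving out 1 library gave 1 to 2. Leaving out 1 library gave 2 to 4 at the middle step, 2 to 3 at the last step and 4 throughout from H1 to CD43+. Without a minimum change the counts were 5, 7, 7 and 8, beside 57.9%, 73.8%, 53.6% and 74.6% of all genes. With the replicate number as a block the counts were 2, 3, 3 and 4, and no call among the 9 genes by the 2-fold rule changed; by adjusted p alone the block moved the counts from 5, 7, 7 and 8 to 7, 7, 8 and 9, through ALAS1 and SLC25A38. Quantile normalization took the middle step of UROD from 0.76 to 0.49. With 0.1 in place of 1 added, the log2 ratio of ALAS2 to ALAS1 moved to −6.27 for H1, −3.11 for APLNR+ and −5.01 for CD31+CD34+ cells, and that of SLC25A37 to SLC25A28 to 1.02 in H1 and 1.69 in CD43+ cells. With the same change 24.5% of all genes were called from H1 to APLNR+ cells in place of 15.9%, and 24.3% in place of 14.4% at the last step. Median-of-ratios scaling and quantile normalization moved the median change of all genes from H1 to CD43+ from −0.10 to 0.02, a shift of 0.12. ALAD was not tested under a minimum mean of 5 FPKM. FPKM without counts gives no counting error, and levels under about 1 FPKM, such as those of ALAS2 before CD43+, have the least precision.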
